A study of Homo sapiens with 9 samples.

Results

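Replication-dependent histone genes lie in clusters and supply the core histones H2A, H2B, H3 and H4 and the linker histone H1 while DNA is copied. Most of their mRNAs have no introns and end in a conserved stem-loop in place of a poly(A) tail. The stem-loop is bound by the protein SLBP, and the pre-mRNA is cut after it by a complex that holds the U7 small nuclear RNA. Libraries made from poly(A) RNA therefore catch these genes mainly through transcripts that run past the stem-loop and are polyadenylated, so that a value here is a level of captured RNA and not of all histone mRNA of the gene.

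The members were all rows of the count table whose symbol begins with HIST1H, HIST2H, HIST3H or HIST4H, which gave 73 of 26364 gene rows. They comprised 6 H1, 18 H2A, 20 H2B, 14 H3 and 15 H4 rows. The HIST1 cluster on chromosome 6 held 56 of them, the HIST2 cluster on chromosome 1 held 13, the HIST3 cluster on chromosome 1 held 3 and the HIST4 locus on chromosome 12 held 1. Annotation named 3 of the rows as pseudogenes.

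RNA-seq of poly(A) RNA was done in 9 libraries of A549, a human lung adenocarcinoma line. The control group held 2 libraries of WT cells, and the *LA* group held 2 libraries of cells edited with sgLOC388942 and sgALK to carry the *LOC388942-ALK* (*LA*) fusion. The sg*FOS* group (2 libraries) and the sgScr group (3 libraries) carried the same edits plus a guide against *FOS* or a scramble guide. The study's methods describe fusion lines grown from single cells, so the *LA* background may be that of 1 clone. The study used more than 1 *FOS* guide, and the labels do not say which guide each sg*FOS* library carried, so the sg*FOS* spread may include a difference between guides. The WT cells are not labelled with a guide, so that the fusion and the editing cannot be told apart.

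Total counts ran from 14507228 to 20456341 a library. *FOS*, the gene targeted by sg*FOS*, stood at 68.6 and 74.3 CPM (counts per 1000000 counts of the library, with library sizes adjusted for composition by the TMM method) in sg*FOS* against 198 to 205 in sgScr. In control it stood at 10.5 and 9.14 CPM, and in *LA* at 336 and 91.6, so the *LA* replicates lay far apart. *ALK*, counted over the whole gene, had no count in either control library and 0.123 and 0.828 CPM in *LA*, and in the other libraries with the fusion it stood at 0.192, 0.0491 and 0.174 CPM in sgScr and at 0.136 and 0 in sg*FOS*. *ALK* in *LA* replicate 1 was thus under the 0.185 CPM that a count of 0 allows in that library (3 counts), and so few counts give little check of the labels. The 7 epithelial and A549 marker genes summed to 16079 to 29626 CPM, the immune markers *PTPRC* and *CD3E* had no count, *CD14* stood at 41.4 and 29.1 CPM in control and at 8.14 to 15.5 in the other libraries, and the summed endothelial and fibroblast markers stayed at or below 1.05 and 18.2 CPM. The part of these markers in the results below was not tested. The control and *LA* libraries stood apart from the rest. Genes with transcripts under 1000 bases took 17.3% and 11.7% of the counts in control and 5.25% and 4.93% in *LA*, against 6.89% to 7.03% in sgScr and sg*FOS*. Between replicates, the chi-square per degree of freedom was 125 in control and 58.1 in *LA*, against 1.74 to 2.65 in sgScr and sg*FOS*. No label says that replicates came from separate cultures, so p-values measure the spread between these libraries, which may be technical.

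The stem-loop of 16 bases was found within 200 bases after the coding sequence in all 67 members that could be scanned on GRCh37, the build called hg19 in the study. It began 23 to 68 bases after the coding sequence and took 10 forms. The form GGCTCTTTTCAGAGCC was present in 39 members of the H1, H2A, H2B and H3 classes, whereas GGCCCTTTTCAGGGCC was found in 9 members, all of them H4 genes. The following stretches show the signal in the members that the results turn on, each 5′ to 3′ on the strand of the gene with the stem-loop in capitals and 5 bases on either side.
HIST1H2BK: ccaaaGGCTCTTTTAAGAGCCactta
HIST1H1C: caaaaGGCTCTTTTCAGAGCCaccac
HIST1H2AC: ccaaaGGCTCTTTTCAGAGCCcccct
HIST2H2BE: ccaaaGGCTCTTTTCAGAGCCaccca
HIST2H2AC: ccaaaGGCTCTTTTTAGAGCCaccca
HIST1H3B: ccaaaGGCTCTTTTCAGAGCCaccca
HIST1H4J: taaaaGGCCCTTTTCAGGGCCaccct
These lie at chr6:27114140-27114165 (minus strand), chr6:26055967-26055992 (minus), chr6:26124892-26124917 (plus), chr1:149857733-149857758 (minus), chr1:149858936-149858961 (plus), chr6:26031820-26031845 (minus) and chr6:27792232-27792257 (plus), in that order. The stem-loop thus stands in abundant members such as *HIST1H2BK* as well as in scarce ones.

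Counts on the members were few and were concentrated in a handful of genes. The members held 18693 counts in all, 0.00941% to 0.0169% of a library. No count was listed for 13 members in any library, 10 had 1 to 9 counts in the 9 libraries together, 30 had 10 to 99, and 20 had 100 or more. *HIST1H2BK*, an H2B gene, alone took 37.9% of the member counts (29.6% to 51.6% by library), the 4 leading members took 66.2% and the 12 leading members 88.6%. A count of 0 allows up to 3 counts, or 0.144 to 0.204 CPM depending on the library, and covers counting error only.

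Per kilobase of annotated transcript, the mean level over the 9 libraries was 93.0 CPM for *HIST1H2BK*. The linker histone gene *HIST1H1C* followed at 22.6 CPM per kilobase, then *HIST1H2BD* at 19.5 and *HIST1H2AC* at 14.3. *HIST2H2BC*, an H2B pseudogene, stood at 12.4 and the H2A gene *HIST3H2A* at 9.35. *HIST2H2BE* was among the 4 leading members by counts, but its annotated transcript has 2224 bases and its level per kilobase was 3.77. The transcript that the authors counted is not given in the sources used here, and a length taken from the short form overstates the level per kilobase of a gene whose counts fall on a longer one.

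A transcript spanning over 1000 bases was annotated in GENCODE or RefSeq for 20 of the 70 members that are not pseudogenes. These 20 took 70.0% of the member counts, had a median of 1.86 CPM per kilobase and included 11 genes with 100 or more counts. *HIST1H2BK*, which is among them, alone held 37.9% of the member counts. The other 50 took 24.0% of the member counts, and 8 of them had 100 or more counts. Their median was 0.238 CPM per kilobase over the 47 with a length. For most genes with a longer transcript the length used was that of the short form, which may raise the median of the 20. The split is not strict, since *HIST1H1C*, next to *HIST1H2BK* in level, has a single annotated transcript of 731 bases. *HIST1H2BK* has a transcript of 495 bases in GENCODE and a span of 8566 bases in RefSeq. *HIST1H2AC* and *HIST1H2BD* lie on the same strand as a longer noncoding gene, and whether reads of the latter were counted on them was not tested.

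**Figure D1:**
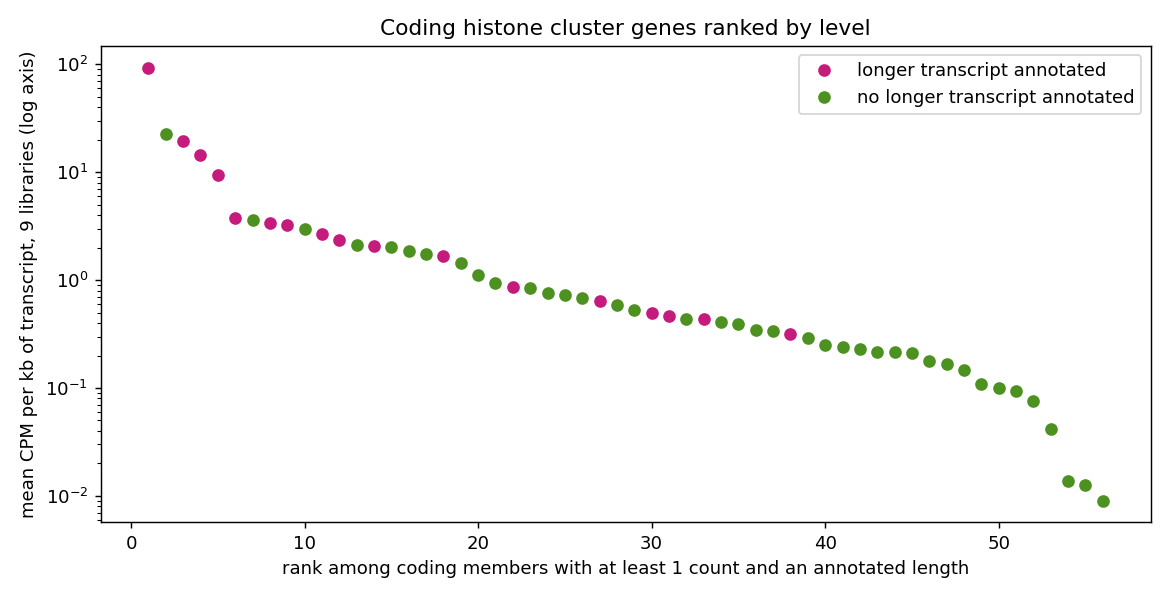
Mean level of each coding member with at least 1 count and an annotated length, as CPM per kilobase of transcript over 9 libraries (log axis), against its rank; colour marks whether a transcript spanning over 1000 bases is annotated. *HIST1H2BK* leads at 93.0, and the medians are 1.86 for members with a longer transcript and 0.238 for those without, both counted with the members at 0, which the log axis leaves out. Most lengths used are those of the short form, and counts may fall on longer ones.

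Near-identical copies limit what single rows can show. Every window of 150 bases in *HIST2H2AA4*, *HIST2H3A*, *HIST2H4A* and *HIST2H4B* is present in another member as well, and for *HIST2H3C* this share is 98.9%. These genes and *HIST2H2AA3* were listed at 0 in all 9 libraries. The H4 genes *HIST1H4J* and *HIST1H4K* share 88.8% and 89.5% of their windows with each other and nevertheless had counts in every library. How reads that match several copies were counted is not given in the sources used here.

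Summed over all members, the level was 175 and 148 CPM in the control libraries, 111 and 156 in *LA*, 92.4, 95.5 and 96.3 in sgScr, and 109 and 110 in sg*FOS*. The sgScr libraries were therefore the lowest of the 9, the sg*FOS* libraries lay above them without overlap, and the control and *LA* ranges overlapped. H2B genes carried most of this sum, with group means of 103 CPM in control (SD 6.05, n = 2), 85.6 in *LA* (SD 22.4, n = 2), 59.4 in sgScr (SD 1.49, n = 3) and 67.2 in sg*FOS* (SD 0.896, n = 2). H3 genes summed to 3.27 and 4.89 CPM in control and to 6.04 and 8.83 in *LA*. In the other libraries with the fusion they summed to 5.33 to 6.09 in sgScr and to 5.38 and 5.81 in sg*FOS*. Over the 9 libraries H1 genes summed to 9.12 to 38.0 CPM, H2A genes to 14.6 to 20.6 and H4 genes to 2.93 to 7.73. Without *HIST1H2BK* the sums of all members averaged 92.0 CPM in control, 75.4 in *LA*, 65.6 in sgScr and 73.2 in sg*FOS*.

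**Figure D2:**
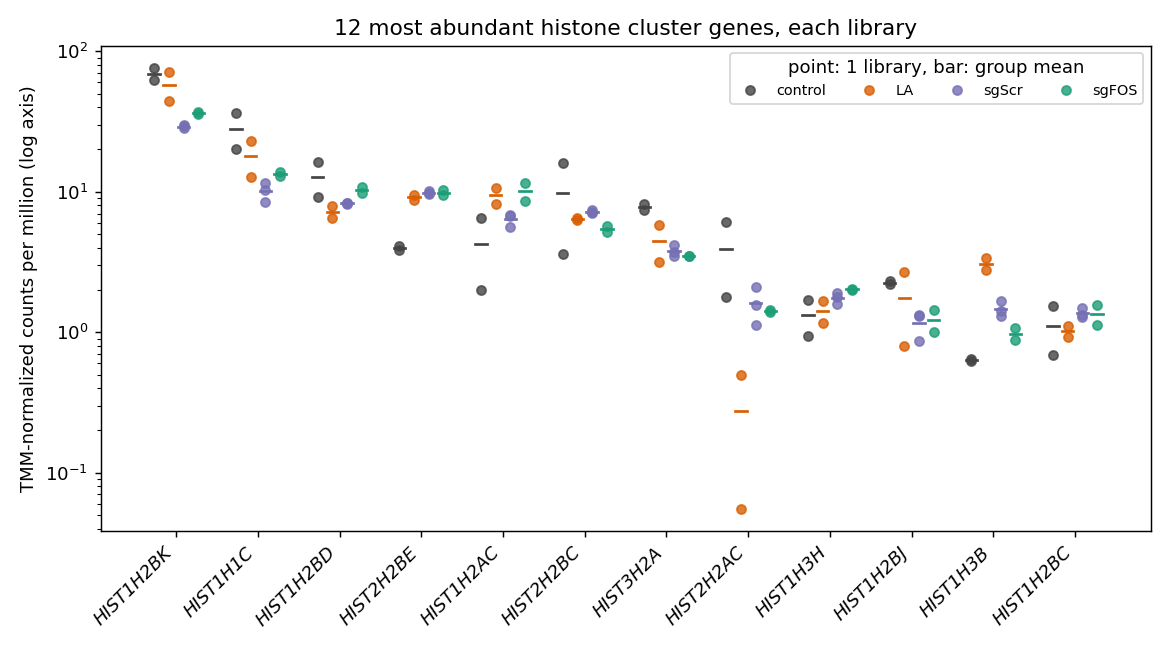
TMM-normalized CPM (log axis) of the 12 members with the highest mean level; each point is 1 library, each bar the mean of a group, and colours mark control, *LA*, sgScr and sg*FOS*. *HIST1H2BK* is highest in every library, *HIST1H3B* is near 0.64 CPM in both control libraries and above 2.77 in both *LA* libraries, and *HIST2H2AC* falls to 0.493 and 0.0552 CPM in *LA*.

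Many H2A and H2B genes are arranged head to head and are transcribed away from a short shared stretch. Among the members, 11 such pairs were found, all of an H2A and an H2B gene, with 193 to 288 bases between the annotated starts. The stretches of the 3 pairs that hold *HIST1H2BK*, *HIST1H2AC* and *HIST2H2BE* are printed because their genes carry the comparisons. They are on the plus strand of GRCh37, with capitals marking matches on either strand to the octamer ATTTGCAT, the CCAAT box, the TATA box TATAAA and the cyclic AMP response element TGACGTCA, where overlapping TATA matches run together.
HIST1H2BK and HIST1H2AH: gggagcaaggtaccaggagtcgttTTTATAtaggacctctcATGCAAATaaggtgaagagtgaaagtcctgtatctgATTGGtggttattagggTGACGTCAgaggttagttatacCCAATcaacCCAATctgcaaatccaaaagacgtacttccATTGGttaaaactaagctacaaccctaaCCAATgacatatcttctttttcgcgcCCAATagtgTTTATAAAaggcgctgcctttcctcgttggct
HIST1H2BC and HIST1H2AC: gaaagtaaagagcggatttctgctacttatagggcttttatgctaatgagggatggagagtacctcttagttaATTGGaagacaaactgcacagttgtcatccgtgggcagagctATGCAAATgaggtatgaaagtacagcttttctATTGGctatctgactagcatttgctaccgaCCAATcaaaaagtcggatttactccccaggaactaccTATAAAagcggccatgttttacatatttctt
HIST2H2BE and HIST2H2AC: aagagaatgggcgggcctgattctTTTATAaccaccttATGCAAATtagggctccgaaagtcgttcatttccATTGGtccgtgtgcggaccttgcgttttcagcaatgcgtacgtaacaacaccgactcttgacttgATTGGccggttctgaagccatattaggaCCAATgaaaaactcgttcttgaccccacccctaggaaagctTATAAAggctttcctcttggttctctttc
They span chr6:27114635-27114884, chr6:26124155-26124399 and chr1:149858233-149858467. Each holds 1 octamer. The stretch between *HIST1H2BK* and *HIST1H2AH* holds 6 CCAAT boxes and 1 cyclic AMP response element, and the other two stretches hold 3 CCAAT boxes each and no such element.

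Partners of a pair were captured at unequal levels. *HIST1H2BK* had 7082 counts in all and its partner *HIST1H2AH* had 17, with 93.0 against 0.238 CPM per kilobase. *HIST1H2AC* stood at 14.3 CPM per kilobase and *HIST1H2BC* at 2.67, and *HIST3H2A* at 9.35 against 0.497 for *HIST3H2BB*. *HIST2H2BE* and *HIST2H2AC* stood at 3.77 and 3.61 CPM per kilobase, although 82.8% of their joint counts fell on *HIST2H2BE*. Levels within a pair thus ran from nearly equal per kilobase to far apart, and both genes of the *HIST1H2AA* and *HIST1H2BA* pair were listed at 0.

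Promoters of 300 bases, taken from RefSeq on GRCh38.p14, were at hand for 65 members and were searched on both strands. The octamer ATTTGCAT, the target of the POU factor Oct-1, was present in 40% of them against 1.80% of 27305 promoters of all genes, and reached 77.8% in H2B and 68.8% in H2A genes with none in H1 or H4. CCAAT was found in 84.6% against 35.7%, in all H1, H2A, H2B and H3 promoters and in 23.1% of those of H4. TATAAA was found in 66.2% against 12%, and TGACGTCA in 13.8% against 1.98%. The AP-1 motif TGANTCA, where N is any base, which is the kind of site bound by FOS with JUN proteins, was present in 1 of 65 member promoters (1.54%, *HIST1H3G*) against 7.76% of all promoters. The genes of a divergent pair share much of their windows, so the promoters are not independent.

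*LA* against control asked which RNAs differed with the fusion, and a gene is called here when its adjusted p in edgeR's quasi-likelihood test is under 0.05. *HIST1H3B*, which encodes the replicative histone H3.1, rose, whereas the H2A gene *HIST2H2AC* and the H4 gene *HIST1H4J* fell. Of 14425 genes tested 19.5% were called (9.57% higher and 9.94% lower), and of the 21 members that passed the filter on low counts 1 was called higher and 2 were called lower. The median log2 fold change was -0.30 over these 21 members and 0.044 over all genes tested. At the study's threshold, an unadjusted p under 0.05 with a log2 fold change over 0.5 in size, 3 members were higher and 3 lower, where 34.5% of all genes passed.

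*HIST1H3B* had 0.628 and 0.648 CPM in control and 2.77 and 3.37 in *LA*. Both *LA* libraries were higher than both control libraries. Its log2 fold change was 2.21 (SE 0.73, adjusted p = 0.0362). The call was lost when any of the 4 libraries was left out, with log2 fold changes of 2.08 to 2.33 and adjusted p from 0.0762 (without control replicate 2) to 0.325 (without *LA* replicate 2).

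*HIST2H2AC* had 6.10 and 1.77 CPM in control and 0.493 and 0.0552 in *LA*, the last value being a single count. The groups did not overlap, but the control libraries themselves differed, with 97 and 30 counts. Its log2 fold change was -3.87 (SE 0.91, adjusted p = 0.00528). Without control replicate 1 it was -2.75 (adjusted p = 0.150), and without *LA* replicate 2 it was -2.99 (adjusted p = 0.124).

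*HIST1H4J* had 3.27 and 1.12 CPM in control and 0.370 and 0.276 in *LA*. Its log2 fold change was -2.78 (SE 0.86, adjusted p = 0.0265), and the call was lost without control replicate 1 (-1.84, adjusted p = 0.329), *LA* replicate 1 (-3.01, adjusted p = 0.199) or *LA* replicate 2 (-2.56, adjusted p = 0.295). Its near copy *HIST1H4K* had 2.51 and 0.943 CPM in control and 0.493 and 0.441 in *LA* (log2 fold change -1.91, SE 0.83, adjusted p = 0.105). Both rows share reads that could fall on either gene.

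Among the 7 most abundant members by CPM none passed the test. *HIST1H2BK* had 62.7 and 76.1 CPM in control and 44.5 and 71.1 in *LA*, so the groups overlapped (log2 fold change -0.30, 95% interval -1.09 to 0.48). *HIST1H1C* had 36.1 and 20.1 CPM in control and 12.8 and 22.95 in *LA*, which overlapped as well (-0.69, adjusted p = 0.289, and -1.14 with adjusted p = 0.0459 without control replicate 2). *HIST2H2BE* had 4.08 and 3.83 CPM in control and 8.75 and 9.55 in *LA*, which did not overlap (1.17, SE 0.52, adjusted p = 0.111). *HIST1H2AC* had 2.01 and 6.48 CPM in control and 8.19 and 10.7 in *LA*, with a log2 fold change of 1.11 (SE 0.57, adjusted p = 0.168). It ran from 0.48 without control replicate 1 to 2.11 without control replicate 2, where it was called (adjusted p = 0.0156). The H2A gene *HIST3H2A* had 7.48 and 8.19 CPM in control and 5.79 and 3.15 in *LA*, without overlap (-0.85, SE 0.54, adjusted p = 0.271). *HIST1H2BD* had 16.3 and 9.14 CPM in control and 6.47 and 7.89 in *LA* (-0.86, adjusted p = 0.217, and -1.30 with adjusted p = 0.0387 without control replicate 2). The pseudogene *HIST2H2BC* had 15.96 and 3.60 CPM in control and 6.47 and 6.35 in *LA* (-0.64, adjusted p = 0.450, and -1.44 with adjusted p = 0.0257 without control replicate 2). Below these in level, the H3 gene *HIST1H3H* had 0.943 and 1.71 CPM in control and 1.17 and 1.66 in *LA*, and the H2B gene *HIST1H2BJ* had 2.20 and 2.30 in control and 0.801 and 2.704 in *LA*. Both overlapped between the groups. Groups did not overlap in 7 members that were higher and 7 that were lower, where all tested genes gave 32.1% and 31.1%.

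Transcript length moved with this comparison. Over all genes tested, the log2 fold change correlated with transcript length at a Spearman rho of 0.577 across genes, which are not independent. The 1095 tested genes under 1000 bases had a median of -1.32 and 47.5% of them were called, 33 higher and 487 lower. When each library was corrected for transcript length and GC content, the members' median went from -0.30 to 0.69, and 16 were higher and 5 lower in place of 9 and 12. The correction used the length of 1 annotated transcript per gene, which is 495 bases for *HIST1H2BK*. Where counts fall on a longer form it may correct too far, which was not tested. *HIST1H3B* (3.23, adjusted p = 0.0147), the H2A gene *HIST1H2AG* (3.01, adjusted p = 0.0407, named after its value was seen) and *HIST2H2BE* (1.32, adjusted p = 0.0497) were then called higher. No member was called lower, with *HIST2H2AC* at -2.61 (adjusted p = 0.0694) and *HIST1H4J* at -1.53 (adjusted p = 0.179). Under this correction 11.7% of all genes were called, and short genes still had a median of -0.34.

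**Figure D3:**
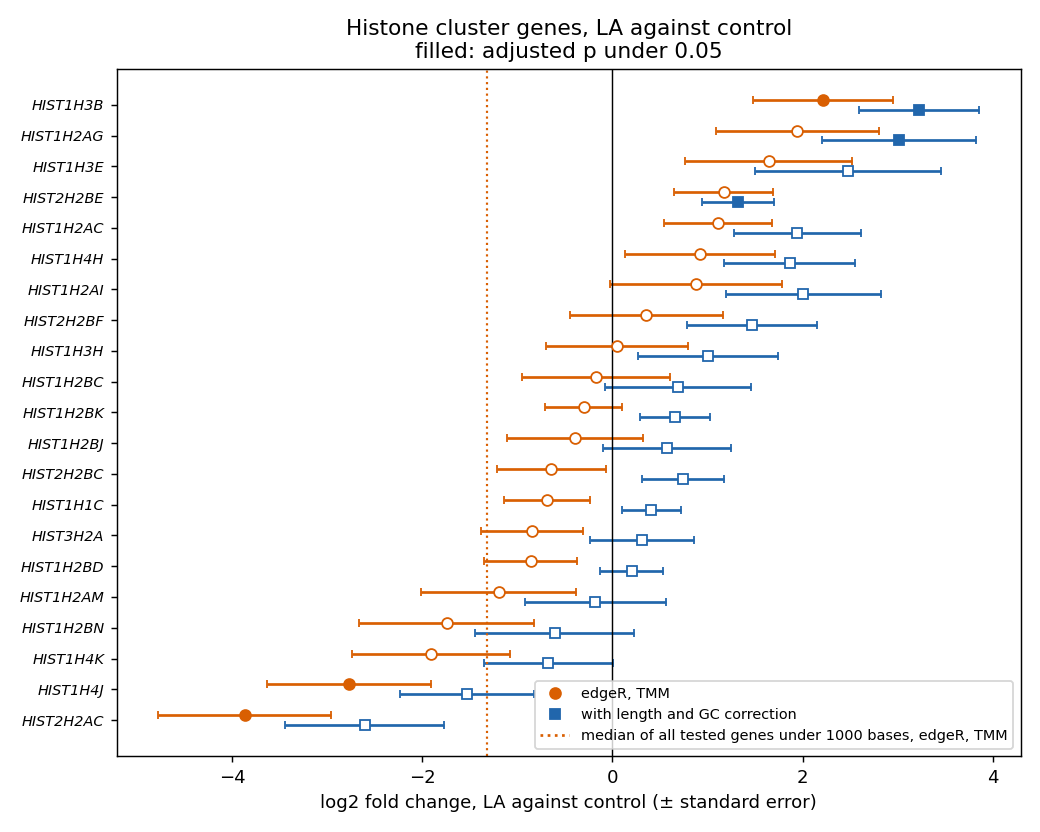
Log2 fold change of *LA* against control with its standard error for the 21 tested members, from edgeR with TMM (circles) and with the length and GC correction (squares); filled symbols have an adjusted p under 0.05, and the dotted line marks the median of tested genes under 1000 bases, -1.32. The corrected value lies above the uncorrected one for each member, with *HIST1H3B* at the top of both series. The correction rests on the annotated transcript length, and counts may fall on longer forms.

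Sg*FOS* against sgScr asked which RNAs differed when *FOS* was edited in cells that carry the fusion. *HIST1H2AC*, *HIST1H1C* and *HIST1H2BK* rose by 0.33 to 0.68 on the log2 scale. Of 14196 genes tested 22.7% were called (12.2% higher and 10.5% lower), and of 20 members tested 3 were called higher and 0 lower. At an unadjusted p under 0.05 there were 5 higher members and 1 lower one, and DESeq2 called 2 higher and 0 lower. The shares of all genes that these settings call were not worked out, so these counts have no background beside them. The median log2 fold change was 0.086 over the members and -0.0015 over all genes tested, and the 15.0% of members called in either direction did not exceed the share over all genes. At the study's threshold 2 members were higher (*HIST1H2AC* and, named after its value was seen, the H4 gene *HIST1H4I*) and 0 lower, where 5.76% of all genes passed. In a fit of all 9 libraries, where the spread of control and *LA* is pooled in, 0 members were called.

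*HIST1H2AC* had 5.62, 6.78 and 6.84 CPM in sgScr and 8.65 and 11.6 in sg*FOS*. Both sg*FOS* libraries were above all 3 sgScr libraries. Its log2 fold change was 0.68 (SE 0.15, adjusted p = 0.000578), and without sg*FOS* replicate 2 it was 0.45 (adjusted p = 0.108). Its divergent partner *HIST1H2BC* had 1.49, 1.33 and 1.28 CPM in sgScr and 1.57 and 1.13 in sg*FOS*, with a log2 fold change of -0.0073 and a 95% interval from -0.64 to 0.63. The difference between partners was not tested.

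*HIST1H1C*, the gene of linker histone H1.2, had 8.40, 10.3 and 11.5 CPM in sgScr and 13.9 and 12.9 in sg*FOS*. The groups did not overlap. Its log2 fold change was 0.43 (SE 0.12, adjusted p = 0.00943). The call was lost without sgScr replicate 1 (0.31, adjusted p = 0.0741), without sg*FOS* replicate 1 (0.38, adjusted p = 0.120) and with DESeq2 (adjusted p = 0.0825).

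*HIST1H2BK* had 29.7, 29.3 and 28.5 CPM in sgScr and 35.8 and 36.7 in sg*FOS*. The spread within each group was small beside the difference, and its log2 fold change was 0.33 (SE 0.068, adjusted p = 0.000359). The value lay between 0.31 and 0.34 with each library left out in turn.

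Members that did not pass included genes of similar level. The H2B gene *HIST1H2BD* had 8.21, 8.35 and 8.29 CPM in sgScr and 10.9 and 9.74 in sg*FOS* (log2 fold change 0.33, SE 0.13, adjusted p = 0.0606), and it was called with the length and GC correction (0.36, adjusted p = 0.0449). The pseudogene *HIST2H2BC* had 7.15, 7.46 and 7.08 CPM in sgScr and 5.17 and 5.74 in sg*FOS* (-0.39, SE 0.15, adjusted p = 0.0622). *HIST2H2BE* had 10.1, 9.72 and 9.63 CPM in sgScr and 10.2 and 9.48 in sg*FOS*, with a 95% interval of the log2 fold change from -0.23 to 0.26. *HIST1H3B* had 1.30, 1.42 and 1.68 CPM in sgScr and 0.885 and 1.07 in sg*FOS*, which did not overlap (-0.56, SE 0.35, adjusted p = 0.264). Normalized within these 5 libraries, groups did not overlap in 6 higher and 2 lower members, against 23.7% and 24.9% of all tested genes. *HIST3H2A* had 3.70, 3.49 and 4.18 CPM in sgScr and 3.47 and 3.47 in sg*FOS*, with a 95% interval of the log2 fold change from -0.50 to 0.29, and whether its groups overlapped depended on which libraries entered the normalization. *HIST2H2AC* had 2.11, 1.13 and 1.57 CPM in sgScr and 1.43 and 1.40 in sg*FOS*, which overlapped. The fold change did not follow transcript length across genes here (Spearman rho -0.0092).

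**Figure D4:**
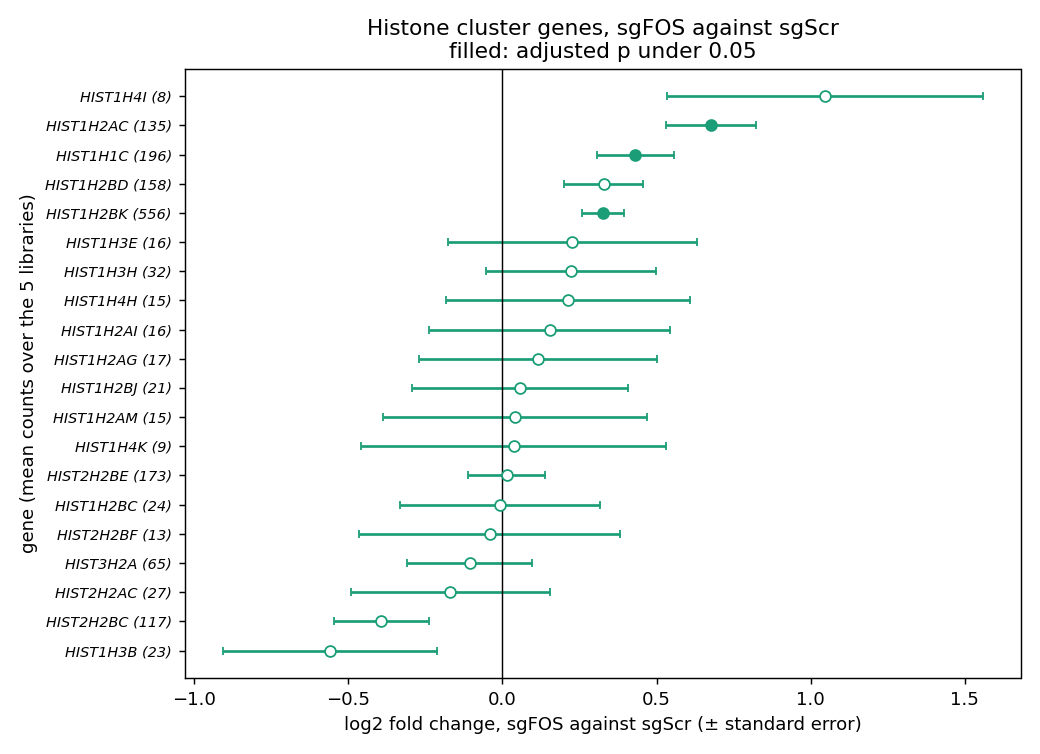
Log2 fold change of sg*FOS* against sgScr with its standard error for the 20 tested members, each labelled with its mean counts over the 5 libraries; filled points have an adjusted p under 0.05. *HIST1H2AC*, *HIST1H1C* and *HIST1H2BK* are filled at 0.68, 0.43 and 0.33, and wide bars belong to members with few counts such as *HIST1H4I*.

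SgScr against *LA* compared the scramble guide cells with the *LA* cells, both with the fusion; the labels do not say whether they were grown or sequenced together, so the guide and any such difference cannot be told apart. The libraries are shared with the comparisons above. *HIST1H2BK* and *HIST1H3B* fell. Of 14521 genes tested 22.9% were called (10.6% higher and 12.3% lower), and of 18 members tested 0 were called higher and 2 lower, with 1 higher and 4 lower at an unadjusted p under 0.05. DESeq2 called 1 higher and 3 lower, and at the study's threshold 1 was higher and 4 were lower, where 25.9% of all genes passed. The shares of all genes at an unadjusted p alone or with DESeq2 were not worked out. The members' median was -0.35, against -0.016 over all genes tested, and groups did not overlap in 5 higher and 6 lower members, against 30.0% and 26.7% of all genes. Tested genes under 1000 bases had a median of 0.16, and 27.1% of them were called, 217 higher and 82 lower. The fold change correlated with transcript length at a Spearman rho of -0.10 across genes. With the length and GC correction the members' median was -0.38.

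*HIST1H2BK* had 44.5 and 71.1 CPM in *LA* and 28.5 to 29.7 in sgScr, with a log2 fold change of -1.03 (SE 0.20, adjusted p = 0.0187). *HIST1H3B* had 2.77 and 3.37 CPM in *LA* and 1.30 to 1.68 in sgScr (-1.11, SE 0.26, adjusted p = 0.0320). Neither pair of groups overlapped. Leaving out any sgScr library ended both calls, with adjusted p of 0.0827 (without replicate 1), 0.0900 (replicate 2) and 0.102 (replicate 3) for *HIST1H2BK*, and of 0.137, 0.143 and 0.107 for *HIST1H3B*. *HIST2H2AC* had 0.493 and 0.0552 CPM in *LA* and 1.13 to 2.11 in sgScr (2.53, SE 0.71, adjusted p = 0.0505). It was not called in this fit, but it was called higher with the length and GC correction (2.45, adjusted p = 0.0421). With 1 library left out its log2 fold change ran from 1.66 to 4.68, the latter without *LA* replicate 1. That fit keeps 1 *LA* library, so its spread came from the sgScr libraries alone. Between replicates the chi-square per degree of freedom was 1.76 to 2.65 in sgScr and 58.1 in *LA*.

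Genes that make, modify or carry histones were followed in fixed lists. Of 21 genes for transcription and 3′ end processing of histone pre-mRNA, 2 rose and 1 fell in *LA* against control, or 14.3% of the list where 19.5% of all genes were called. *LSM10*, a protein of the U7 particle, fell (log2 fold change -1.74, SE 0.43, adjusted p = 0.00725), whereas *CASP8AP2*, whose product FLASH takes part in the cutting of histone pre-mRNA, rose (1.52, SE 0.49, adjusted p = 0.0309). *ZCCHC6*, a terminal uridylyltransferase, rose as well (1.47, SE 0.43, adjusted p = 0.0183). With the length and GC correction 0 of the 21 were called. In sg*FOS* against sgScr the cyclin E gene *CCNE1* rose (0.40, SE 0.065, adjusted p = 1.0e-05), and the cleavage factor gene *CPSF2* (-0.24) and the kinase gene *CDK2* (-0.20) fell, again 14.3% of the list against 22.7% of all genes. In sgScr against *LA* 4 genes rose and 0 fell, 19.0% of the list against 22.9% of all genes. They were led by *CDK2* (0.94), *LSM10* (0.49) and *ZNF473* (0.47), which encodes another protein of histone pre-mRNA processing.

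Histone variant and linker genes outside the clusters had 10 members tested. In *LA* against control 3 fell and 0 rose, 30% of the list against 19.5% of all genes: *H2AFJ* (-2.23, SE 0.47, adjusted p = 0.00285), *H2AFZ* (-1.46, SE 0.43, adjusted p = 0.0193) and the linker histone gene *H1FX* (-1.37, SE 0.42, adjusted p = 0.0264). With the length and GC correction 0 of the 10 were called. In sg*FOS* against sgScr 5 fell and 0 rose, 50% of the list against 22.7% of all genes, with the linker histone gene *H1F0* at -0.39 (SE 0.037, adjusted p = 1.0e-10), the centromeric H3 gene *CENPA* at -0.38 and *H1FX* at -0.21. In sgScr against *LA* 5 rose and 1 fell, 60% of the list against 22.9% of all genes, led by *H2AFJ* (1.26), *H1F0* (1.19) and *H1FX* (0.83).

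The next list held 23 genes of histone chaperones and of the acetylation of new histones. *ATRX*, part of the deposition of H3.3, was the 1 gene called in *LA* against control (1.74, SE 0.43, adjusted p = 0.00681), 4.35% of the list against 19.5% of all genes. With the length and GC correction *ATRX* was not called, and *NAP1L1* (-2.05, adjusted p = 0.00882) and *NASP* (-1.21, adjusted p = 0.0467), both genes of histone chaperones and named after their values were seen, were called lower. In sg*FOS* against sgScr 1 rose and 9 fell, 43.5% of the list against 22.7% of all genes, led by the H2A.Z chaperone gene *ANP32E* (-0.39, SE 0.038, adjusted p = 3.5e-10), the CENPA chaperone gene *HJURP* (-0.31) and *MMS22L* (-0.21), which acts with *TONSL* at replication forks. In sgScr against *LA* 2 rose and 2 fell, 17.4% of the list against 22.9% of all genes. *TONSL* stood at -0.54, the FACT subunit gene *SSRP1* at 0.37 and the CAF-1 subunit gene *CHAF1A* at 0.34.

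Replication-dependent histone genes are used in S phase, and 22 S phase genes were set beside them as a comparison list. In *LA* against control 0 rose and 3 fell: *GINS2* (-1.85, SE 0.42, adjusted p = 0.00476), *PCNA* (-1.40, SE 0.43, adjusted p = 0.0238) and *RFC4* (-1.18, SE 0.41, adjusted p = 0.0459). This was 13.6% of the list against 19.5% of all genes. With the length and GC correction *GINS2* (-1.85, adjusted p = 0.0123) and *MCM5* (-1.04, adjusted p = 0.0348) were called lower, and with library size alone *GINS2* was called lower (-1.53, adjusted p = 0.0254) and *POLA1* higher (1.44, adjusted p = 0.0443), where *MCM5* and *POLA1* are named after their values were seen. In sg*FOS* against sgScr 12 of the 22 fell and 0 rose, where 10.5% of all genes fell. They were led by *RFC4*, a clamp loader subunit (-0.28, SE 0.060, adjusted p = 0.000529), the primase gene *PRIM1* (-0.23) and the helicase factor *CDC45* (-0.22). The list median was -0.14, while the histone cluster genes had a median of 0.086 and 0 called lower in the same libraries. Standard errors ran from 0.068 to 0.51 over the members tested and from 0.037 to 0.12 over the S phase genes. A fall of the size of the list median could therefore be missed in members with few counts, and the difference between the lists was not tested. In sgScr against *LA* 2 S phase genes rose, *MCM7* (0.52) and *UNG* (0.47), and 1 fell, *E2F1* (-0.64). Together they made up 13.6% of the list, against 22.9% of all genes. Whether the share of cells in S phase moved with the members was not tested.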

How the data were processed

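Whole-number read counts for each gene in 9 libraries were used as the authors deposited them, with no scaling applied. Libraries came from a stranded mRNA kit and were read from both ends, and the submitters' processing notes name hg19, STAR 2.7.10b and DESeq2 1.26.0. How reads were assigned to genes (tool, gene models, use of strand) is not given in the sources used here, so antisense, overlapping and near-identical genes are uncertain. All per-sample columns were used.

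The members and gene lists were chosen with earlier results of these data known. Counts were tested in R 4.3.3 with edgeR 4.0.16 (TMM, filterByExpr, quasi-likelihood test, two-sided, Benjamini-Hochberg over all genes tested, threshold 0.05) on the libraries of each of 3 comparisons alone. CPM are TMM-normalized over all 9 libraries. Intervals are 95%. The procedure was tested on simulated data. Named are the 12 members with the highest mean CPM, the 5 largest changes among called members averaging 20 or more counts, and the 3 largest called changes in each list. Replicates were averaged as separate samples. Positions, lengths and sequences came from GENCODE 44 on GRCh37 (70 members matched) and RefSeq on GRCh38.p14 (73 matched for names and 65 for promoters), read with Python 3.11.15 and pysam. Same-numbered libraries did not deviate together, so the numbers were not taken as pairs. Alternatives were DESeq2 1.42.0, its size factors, library size alone, no filter, all 9 libraries, a replicate block, a loess correction for transcript length and GC content (span 0.5), the study's threshold and leaving out each replicate. A marker gene is not reported here.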

Additional observations from a re-analysis of the deposited data

How the results depend on the processing

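Few counts limit the members: 51 of 73 were never tested, and none of those exceeded 21 counts in a library. For *LA* against control, 1 higher and 2 lower members were called, against 1 and 1 with library size alone, 3 and 5 with all 9 libraries, 3 and 0 with the length and GC correction, and 3 and 3 at the study's threshold. With the replicate number as a block there were 0 and 1. Same-numbered deviations correlated at -0.27, and a block with crossed pairing, chosen after seeing the data, gave 1 and 2. Library size alone moved the median of all genes from 0.044 to 0.33, and those of the processing, chaperone and S phase lists to 0.24, 0.18 and 0.14. Leaving out each replicate gave 0 to 1 higher and 0 to 5 lower, where a lone library is assumed to vary like the others. Directions turned for *HIST1H2BC* with library size alone (0.077), and with the length and GC correction for *HIST1H2BK* (0.66), *HIST1H1C* (0.41), *HIST1H2BD* (0.20), *HIST2H2BC* (0.74), *HIST3H2A* (0.31), *HIST1H2BJ* (0.57) and *HIST1H2BC* (0.69). With 1 library left out, *HIST2H2BC* ran from -1.44 to 0.76, *HIST1H3H* from -0.34 to 0.46, *HIST1H2BJ* from -1.50 to 0.21 and *HIST1H2BC* from -0.66 to 0.43. For sg*FOS* against sgScr, 3 and 0 were called, 0 and 0 with all 9 libraries, 4 and 0 with the length and GC correction, and 2 to 3 and 0 without each replicate. The fit with the length and GC correction called 20% of the members tested and 19.2% of all genes. The replicate block changed none of the 3 calls and turned *HIST1H2BJ* to -0.10. *HIST1H2BC* turned to 0.018 with the length and GC correction, and *HIST1H2BK* and *HIST1H1C* lay under the study's fold threshold. With 1 library left out, *HIST2H2BE* ran from -0.041 to 0.065, *HIST2H2AC* from -0.37 to 0.099, *HIST1H2BJ* from -0.22 to 0.29 and *HIST1H2BC* from -0.26 to 0.20. For sgScr against *LA*, 0 and 2 were called, against 1 and 3 with DESeq2, 1 and 2 with its size factors or without a filter, 0 and 1 with all 9 libraries, 1 and 1 with the replicate block, and 1 and 4 with the length and GC correction or at the study's threshold. The fit with the length and GC correction called 27.8% of the members tested and 28.4% of all genes. In all 3 comparisons, shares of all genes called were not worked out for DESeq2, its size factors, library size alone, no filter or all 9 libraries. Nor were they worked out for the replicate or crossed block, an unadjusted p alone, or leaving out each replicate. Counts of members called under these settings therefore have no background beside them. With 1 library left out, *HIST3H2A* ran from -0.64 to 0.23 and *HIST1H2BJ* from -1.23 to 0.52. Without *HIST1H2BK* the summed level averaged 92.0, 75.4, 65.6 and 73.2 CPM in control, *LA*, sgScr and sg*FOS*, and with library size alone the means were 145, 144, 95.6 and 112, with control libraries at 144 and 146 and *LA* at 118 and 169. The cause was not tested.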
